A study of Homo sapiens with 12 samples.

Results

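Heme oxygenase and the antioxidant genes that are textbook targets of the transcription factor NRF2 were followed in MDA-MB-231, a long-established human cell line of triple-negative breast cancer that has mesenchymal features. The set was defined by name as 9 genes: HMOX1, BLVRA, BLVRB, FTH1, FTL, NQO1, GCLC, GCLM and GSR. Of these, 8 had at least 1 probe set listed for them alone on the array, 15 probe sets in all, among 11963 genes tested. No probe set was listed for FTH1 in the annotation used, and FTH1 was not analysed here. The cells had received for 24 h the vehicle DMSO, 5 uM SAHA (vorinostat, which blocks histone deacetylases), 2.5 mM pargyline (which blocks monoamine oxidases and can also block LSD1, a histone demethylase), or SAHA and pargyline together at those doses, called COMBO in the titles. Each of the 4 groups held 3 biological replicates of this single line, 1 array each.

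HMOX1 splits heme into biliverdin, carbon monoxide and free iron. Biliverdin reductases turn the biliverdin into bilirubin, an antioxidant, and ferritin, built of the heavy chain FTH1 and the light chain FTL, stores the iron. GCLC and GCLM are the catalytic and modifier subunits of the enzyme that starts glutathione synthesis, GSR regenerates reduced glutathione, and NQO1 reduces quinones. NRF2, encoded by NFE2L2, is held at a low level by KEAP1, which presents it to a ubiquitin ligase; when NRF2 escapes, it pairs with small MAF proteins and binds antioxidant response elements in these genes, while BACH1 represses HMOX1 at the same kind of element.

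Values are log2 intensities, so a difference of 1 is a doubling. Each gene is represented by its probe set with the highest mean over the 12 arrays, and the level of one probe set cannot be set against that of another. The words rose and fell are kept for genes that passed the two-sided moderated test of limma, at a p under 0.05 after Benjamini-Hochberg adjustment across every gene tested. Array medians lay between 5.15 and 5.38, replicates correlated with r between 0.998 and 0.999, and the number of arrays limits the precision. VIM, the mesenchymal filament gene, ranked at the 99.6th percentile of genes by mean value. Of 7 luminal markers, ESR1, PGR, FOXA1 and CDH1 had group means of 3.15 or lower, against a median gene at 7.06, while GATA3, EPCAM and ERBB2 were above it with DMSO (9.23, 8.42 and 8.28). All 5 fibroblast, 4 measured leukocyte and 2 measured erythroid markers were below that median gene, with list means over the 12 arrays from 3.47 to 3.61, from 2.11 to 2.23 and from 1.98 to 2.03. GATA3, EPCAM and ERBB2 were lower with SAHA, at 6.27, 5.94 and 5.19. Among 4 mesenchymal markers CD44 (13.67 with DMSO, 11.56 with SAHA), CAV1 (14.63 and 13.25) and SPARC (9.37 and 8.43) were lower too, while VIM read 14.90 and 14.88. The mean over the 7 luminal markers ran from 5.16 to 5.19 with DMSO, from 3.92 to 4.02 with SAHA, from 4.99 to 5.06 with pargyline and from 3.67 to 3.86 with both drugs. The mean over the mesenchymal markers ran from 13.1 to 13.2 with DMSO and with pargyline, from 11.9 to 12.2 with SAHA and from 12.2 to 12.4 with both drugs, and the part of these shifts in the results below was not tested.

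HMOX1 rose with each drug and rose most with both. Its probe set, 203665_at, read 8.12, 8.29 and 6.87 on the DMSO arrays, 10.15, 10.04 and 9.70 with SAHA, 10.59, 10.55 and 10.00 with pargyline, and 12.53, 12.98 and 12.37 with both drugs. Every treated array lay above every DMSO array, and every COMBO array above every single-drug array, while the SAHA and pargyline arrays overlapped. Such separation was common: against DMSO it held for 52.9% of all genes with SAHA, 30.8% with pargyline and 66% with COMBO. It held for 37.6% in COMBO against SAHA, 53.2% in COMBO against pargyline and 50.9% in SAHA against pargyline. These shares apply to each gene below too. Over 3 arrays each, the HMOX1 means and SDs were 7.76 ± 0.77 for DMSO, 9.96 ± 0.24 for SAHA, 10.38 ± 0.33 for pargyline and 12.63 ± 0.31 for COMBO. The log2 difference from DMSO was 2.20 ± 0.35 (SE) for SAHA, a 4.60-fold rise with adjusted p = 0.00047 in limma. For pargyline it was 2.62 ± 0.35, or 6.14-fold, with adjusted p = 0.00132. For both drugs it was 4.87 ± 0.35, or 29.2-fold, with adjusted p = 1.88e-06. Ranked by size of rise among the 11963 genes, HMOX1 stood at 306 with SAHA, 15 with pargyline and 42 with both. DMSO replicate 3 was the lowest control, and without it the differences were 1.76, 2.17 and 4.42, all still past the threshold. A whole-culture value cannot tell a rise in every cell from a larger share of cells that express the gene.

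**Figure D1:**
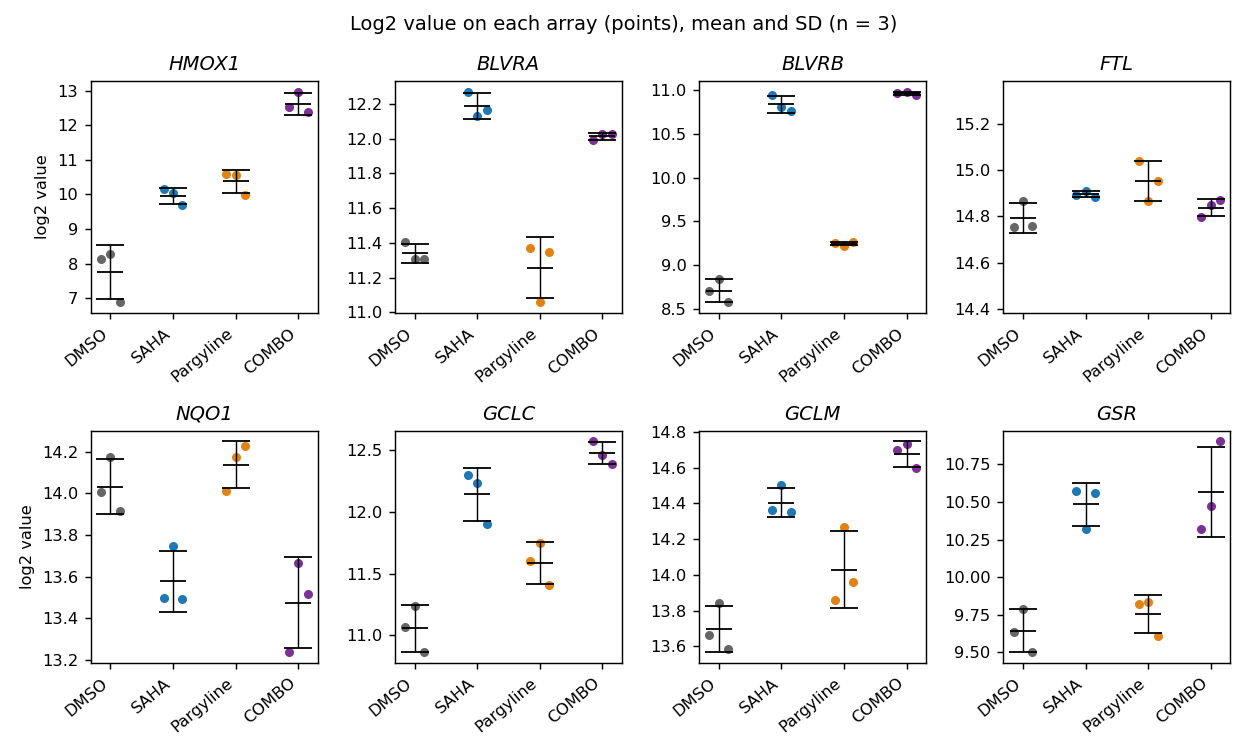
Log2 value of 8 genes (panels) on each of the 12 arrays, by treatment on the x axis; points are arrays, the bar is the mean and the whiskers the SD (n = 3), and each panel has its own y range of at least 1 log2 unit. HMOX1 steps up from DMSO (mean 7.76) to the single drugs (9.96 and 10.38) to both (12.63), BLVRA, BLVRB and GSR are high wherever SAHA is present, and NQO1 is low there.

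Adding the second drug raised HMOX1 again. COMBO exceeded SAHA alone by 2.67 ± 0.35 (SE), adjusted p = 0.00161 in limma, and pargyline alone by 2.25 ± 0.35, adjusted p = 0.000412. The single-drug differences summed to 4.82, beside 4.87 measured for the combination. The interaction, which is the combination difference minus that sum, was 0.05 with a 95% interval from -1.10 to 1.19 and adjusted p = 0.985, an interval wide enough to hold a departure of about a doubling either way. SAHA and pargyline alone differed by -0.42 in HMOX1, with an interval from -1.23 to 0.39 and adjusted p = 0.412. HMOX2, the constitutive heme oxygenase, differed little: it read from 9.20 to 9.33 on the DMSO arrays, from 9.56 to 9.78 with SAHA, from 9.27 to 9.48 with pargyline and from 9.45 to 9.60 with both. Its SAHA difference of 0.39 ± 0.07 passed (adjusted p = 0.0016). A further HMOX2 probe set, with means of only 3.59 with DMSO and 3.71 with SAHA, gave 0.12 ± 0.22. The mean of both probe sets did not pass with SAHA (adjusted p = 0.161). The COMBO difference of HMOX2, 0.26 ± 0.07, passed (adjusted p = 0.0157). It did not pass with the mean of both probe sets (adjusted p = 0.289) or with arrays centred on their medians (0.291). Nor did it without DMSO replicate 3 (0.059) or without COMBO replicate 1 (0.0598).

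The biliverdin reductases followed SAHA. BLVRB, which reduces biliverdin IXbeta and flavins, read 8.70, 8.84 and 8.57 with DMSO, 10.95, 10.81 and 10.76 with SAHA, 9.25, 9.22 and 9.26 with pargyline and 10.97, 10.98 and 10.94 with both drugs (202201_at). The SAHA and COMBO arrays lay apart from the rest, and the pargyline arrays lay between them and DMSO with no overlap. BLVRB rose by 2.14 ± 0.07 with SAHA (SE, 4.39-fold, adjusted p = 1.47e-08 in limma), by 0.54 ± 0.07 with pargyline (1.45-fold, adjusted p = 0.000768) and by 2.26 ± 0.07 with both (4.80-fold, adjusted p = 9.65e-09). COMBO differed from SAHA alone by 0.13, with an interval from -0.02 to 0.28 and adjusted p = 0.248.

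BLVRA, the reductase for biliverdin IXalpha, the main product of heme oxygenase, read 11.40, 11.31 and 11.31 with DMSO, 12.27, 12.13 and 12.16 with SAHA, 11.37, 11.06 and 11.34 with pargyline and 11.99, 12.02 and 12.03 with both (211729_x_at). The arrays with SAHA stood above all without it, and the pargyline arrays overlapped with DMSO. BLVRA rose by 0.85 ± 0.08 with SAHA (SE, adjusted p = 1.01e-05 in limma) and by 0.67 ± 0.08 with both drugs (adjusted p = 4.1e-05). With pargyline its difference was -0.08, with an interval from -0.26 to 0.09 and adjusted p = 0.563. Of its 3 further probe sets, 203773_x_at gave 0.87 with SAHA and 0.69 with both, 203771_s_at gave 1.11 and 0.97, and 203772_at, which read between 2.49 and 2.58 on all arrays, gave 0.02 and 0.00.

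FTL, the ferritin light chain, differed little between groups. It read 14.75, 14.87 and 14.76 with DMSO, 14.89, 14.91 and 14.89 with SAHA, 15.04, 14.86 and 14.95 with pargyline and 14.80, 14.85 and 14.87 with both (212788_x_at). These values lie close to the highest reading of any probe set, which was between 15.8 and 15.9 on the 12 arrays. FTL differed from DMSO by 0.10 with SAHA (interval -0.00 to 0.21, adjusted p = 0.107 in limma) and by 0.04 with both drugs (interval -0.06 to 0.15, adjusted p = 0.483). The SAHA difference passed with quantile normalization (0.14, adjusted p = 0.00715) and without DMSO replicate 2 (0.14, adjusted p = 0.0425). With pargyline it passed by 0.16 ± 0.05 (SE, adjusted p = 0.048) although its arrays overlapped with DMSO. That call was lost in 10 of 12 fits without 1 array (adjusted p up to 0.16), kept only without DMSO replicate 2 or Pargyline replicate 2, and lost with the replicate number as a block (adjusted p = 0.075) and with arrays centred on their medians (0.03, adjusted p = 0.69). The further FTL probe set gave 0.22 ± 0.08 with pargyline, adjusted p = 0.109. Ferritin messages carry an iron response element near the 5′ end, a hairpin through which iron controls their translation, which RNA levels do not measure. The first 50 bases of the FTL transcript in RefSeq hold the element's loop, the letters CAGTGN on the gene strand, beginning at base 39. The stretch around it is shown because it is the control point of this gene that an RNA measurement leaves out, at chr19:48965329-48965358 on the plus strand of GRCh38.p14, with the loop letters in capitals.
FTL: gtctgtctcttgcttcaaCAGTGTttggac

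Genes of glutathione synthesis and recycling rose with SAHA and with both drugs. GCLC read 11.07, 11.24 and 10.87 with DMSO, 12.29, 12.23 and 11.90 with SAHA, 11.60, 11.75 and 11.41 with pargyline and 12.57, 12.46 and 12.39 with both (202923_s_at). In this probe set its groups formed 4 separate steps with no overlap, in the order DMSO, pargyline, SAHA and COMBO. GCLC rose by 1.08 ± 0.13 with SAHA (SE, 2.12-fold, adjusted p = 6.89e-05 in limma), by 0.53 ± 0.13 with pargyline (1.44-fold, adjusted p = 0.0233) and by 1.42 ± 0.13 with both (2.67-fold, adjusted p = 9.58e-06). The top step, COMBO over SAHA, was 0.33 and did not pass (interval 0.03 to 0.63, adjusted p = 0.127). With the replicate number as a block it passed (adjusted p = 0.0159). The pargyline call was lost without DMSO replicate 1 (adjusted p = 0.0665), DMSO replicate 3 (0.0688), Pargyline replicate 1 (0.0644) or Pargyline replicate 2 (0.0746). A further GCLC probe set gave 1.15, 0.44 and 1.30 for SAHA, pargyline and both. In that probe set the SAHA and COMBO arrays overlapped, and COMBO over SAHA was 0.15 (adjusted p = 0.468 in limma over probe sets).

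GCLM, the modifier subunit, kept the same order. It read 13.67, 13.84 and 13.59 with DMSO, 14.36, 14.50 and 14.35 with SAHA, 13.86, 14.27 and 13.96 with pargyline and 14.70, 14.73 and 14.60 with both (203925_at). Neighbouring groups in this order did not overlap, although the pargyline arrays came close to the DMSO arrays. GCLM rose by 0.71 ± 0.10 with SAHA (SE, 1.63-fold, adjusted p = 0.000289 in limma) and by 0.98 ± 0.10 with both (1.97-fold, adjusted p = 2.69e-05). With pargyline it differed by 0.33 ± 0.10 and did not pass (adjusted p = 0.0631), nor did COMBO over SAHA (0.27, interval 0.03 to 0.51, adjusted p = 0.12). The pargyline difference passed when genes below the lower tertile were left out (adjusted p = 0.0457), with a trended and robust prior (0.0394), with the replicate number as a block (0.0111) and without Pargyline replicate 1 (0.0367). COMBO over SAHA passed with the replicate number as a block (0.0229), with array weights (0.0339) and without Pargyline replicate 2 (0.0385).

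GSR read 9.64, 9.79 and 9.50 with DMSO, 10.58, 10.32 and 10.56 with SAHA, 9.82, 9.84 and 9.61 with pargyline and 10.32, 10.47 and 10.90 with both (205770_at). The arrays with SAHA lay above those without it. GSR rose by 0.84 ± 0.15 with SAHA (SE, adjusted p = 0.000837 in limma) and by 0.92 ± 0.15 with both (adjusted p = 0.000408). With pargyline the difference was 0.11, with an interval from -0.23 to 0.45 and adjusted p = 0.7.

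NQO1 went the other way. It read 14.01, 14.17 and 13.91 with DMSO, 13.50, 13.75 and 13.49 with SAHA, 14.01, 14.17 and 14.23 with pargyline and 13.24, 13.67 and 13.52 with both (210519_s_at). All arrays with SAHA were below all without it, and pargyline overlapped with DMSO. NQO1 fell by 0.45 on the log2 scale with SAHA (SE 0.12, a 1.37-fold decrease, adjusted p = 0.0107 in limma) and fell by 0.56 with both drugs (SE 0.12, 1.47-fold, adjusted p = 0.00304). With pargyline the difference was 0.11, with an interval from -0.17 to 0.38 and adjusted p = 0.649. Its 2 further probe sets gave -0.65 and -0.44 with SAHA, and -0.73 and -0.72 with both, and all 4 of these values passed.

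**Figure D2:**
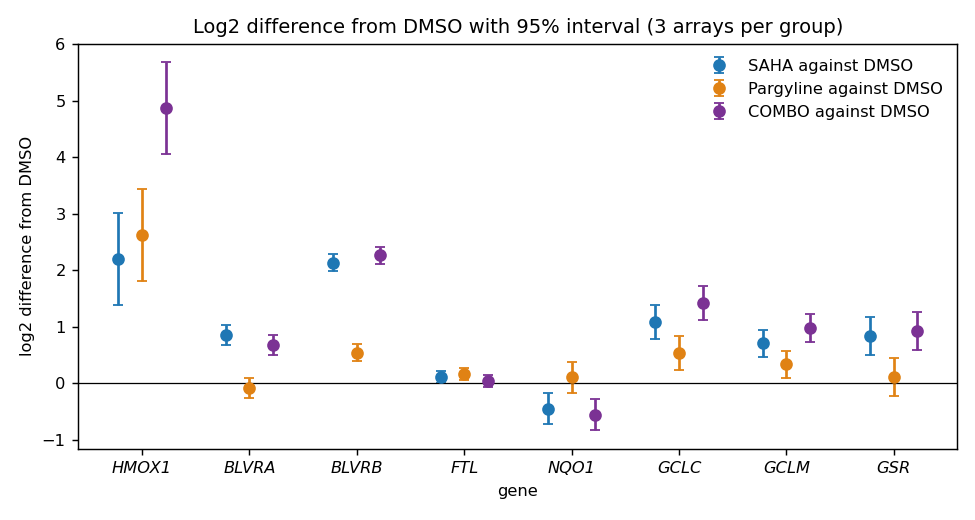
Log2 difference from DMSO of 8 genes (x axis) for SAHA, pargyline and both drugs. Points are differences of group means (3 arrays each) and whiskers are 95% intervals from the SE of the limma fit with 8 degrees of freedom. HMOX1 reaches 4.87 with both drugs, BLVRB stands at 2.14 and 2.26 with SAHA and with both, and NQO1 lies below 0 in those comparisons.

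The promoters of GCLM and GCLC, the subunits of 1 enzyme, and of NQO1, which fell, are shown, since NRF2 is known to act on all of them. The order of group means in GCLM and GCLC was not theirs alone, as BLVRB and GSR had it too. RefSeq windows of 250 bases before to 50 after the transcript start (GRCh38.p14) were at hand for 6 genes: BLVRA, BLVRB, FTL, NQO1, GCLC and GCLM. The core of the antioxidant response element, TGACNNNGC on either strand, was in 1 of these 6 windows and in 13.3% of all 35116 promoter windows of that length. The match was in GCLM, on the minus strand from base -34 to -26 before the start, and read GCTTAGTCA on the gene strand. The related AP-1 site TGANTCA, which can overlap with that core, was in 0 of the 6 and in 7.71% of all. The 250 bases before each start are printed 5′ to 3′ with the element in capitals, from chr1:93909431-93909680 for GCLM, chr6:53545102-53545351 for GCLC and chr16:69726561-69726810 for NQO1, all on the minus strand.
GCLM: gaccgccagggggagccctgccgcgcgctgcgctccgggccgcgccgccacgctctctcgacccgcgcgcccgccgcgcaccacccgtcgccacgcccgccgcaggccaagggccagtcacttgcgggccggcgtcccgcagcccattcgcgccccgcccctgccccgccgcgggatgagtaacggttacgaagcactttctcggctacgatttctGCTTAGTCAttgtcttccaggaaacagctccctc
GCLC: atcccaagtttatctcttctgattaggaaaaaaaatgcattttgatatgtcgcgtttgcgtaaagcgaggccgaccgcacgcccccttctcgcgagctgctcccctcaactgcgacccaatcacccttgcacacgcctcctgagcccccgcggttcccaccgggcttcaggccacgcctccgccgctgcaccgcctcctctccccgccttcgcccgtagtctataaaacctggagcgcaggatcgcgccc
NQO1: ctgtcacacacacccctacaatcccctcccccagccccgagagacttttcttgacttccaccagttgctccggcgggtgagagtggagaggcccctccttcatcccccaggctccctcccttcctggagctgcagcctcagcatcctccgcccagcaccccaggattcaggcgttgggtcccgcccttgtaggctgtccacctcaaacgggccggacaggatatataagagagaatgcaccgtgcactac
GCLC and NQO1 hold no such letters in these windows, which do not reach the distal elements through which NRF2 is known to act on many of its targets.

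Counted together against DMSO, 6 of the 8 genes rose and 1 fell with SAHA, where 46.2% of all genes passed, and their median difference was 0.84 against 0.00 over all genes. With pargyline 4 rose and 0 fell, where 15.9% of all genes passed, with a median of 0.24 against -0.02. With arrays centred on their medians 3 rose and that median was 0.11, where the median over all genes was -0.15. Without DMSO replicate 1, or without DMSO replicate 3, the pargyline count was 2, namely HMOX1 and BLVRB. With both drugs 6 rose and 1 fell, where 48.3% passed, with a median of 0.95 against -0.01. These comparisons share the DMSO arrays, so their counts are not independent of each other.

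Between treatments, the genes other than HMOX1 and FTL differed mainly where SAHA was added. COMBO over SAHA alone gave 1 rise, HMOX1, among the 8, where 16.6% of all genes passed. This count was 3 with the replicate number as a block, when GCLC and GCLM also rose (adjusted p = 0.0159 and 0.0229), and 3 without Pargyline replicate 2, when GCLM rose (0.0385) and BLVRA fell (0.0248). COMBO over pargyline alone gave 6 rises and 1 fall, where 47.5% passed: HMOX1, BLVRA, BLVRB, GCLC, GCLM and GSR rose, by 0.65 to 2.25, and NQO1 fell by 0.66 (SE 0.12, adjusted p = 0.0011). SAHA against pargyline gave 5 higher (BLVRA, BLVRB, GCLC, GCLM and GSR, by 0.37 to 1.60) and 1 lower (NQO1, -0.56), where 46.2% passed. GCLM, the smallest of these at 0.37, did not pass without SAHA replicate 2, Pargyline replicate 1 or Pargyline replicate 3 (adjusted p = 0.0555, 0.0549 and 0.0526).

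The interaction passed for 1 of the 8 genes, where 3.72% of all genes passed. For BLVRB the single-drug differences summed to 2.68 and the combination gave 2.26, an interaction of -0.41 ± 0.09 (SE, interval -0.63 to -0.20, adjusted p = 0.0417 in limma). It passed in 2 of 12 fits without 1 array, those without DMSO replicate 2 or SAHA replicate 3, with adjusted p from 0.0505 to 0.0918 in the others. It also did not pass with quantile normalization (0.0594), arrays centred on their medians (0.124) or a trended and robust prior (0.102), while its size stayed between -0.48 and -0.34. For the other 7 genes the interaction ran from -0.22 (FTL, adjusted p = 0.116) to 0.05 (HMOX1). That of FTL passed with quantile normalization (-0.24, adjusted p = 0.0324) and without Pargyline replicate 2 (-0.26, adjusted p = 0.0486).

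**Figure D3:**
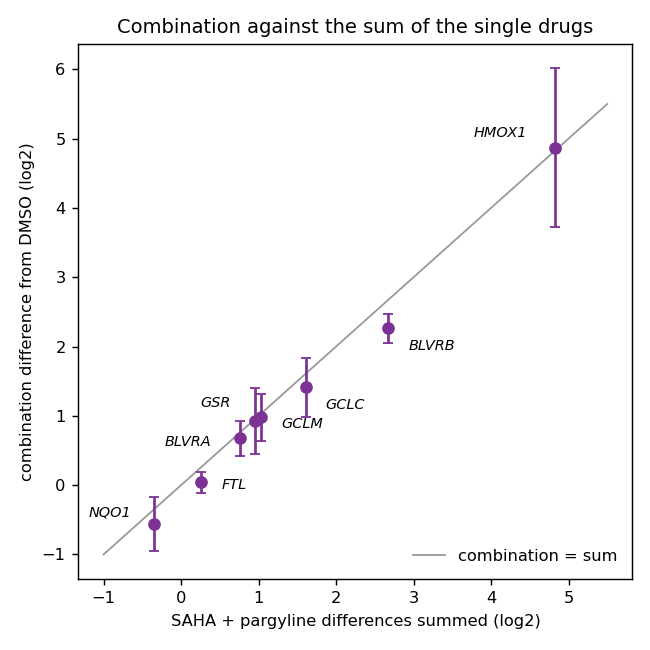
Log2 difference of the combination from DMSO (y axis) against the sum of the SAHA and pargyline differences (x axis) for 8 genes; whiskers are the 95% interval of the interaction drawn around the combination value, and the line marks equality. HMOX1 lies on the line at 4.82 and 4.87, and BLVRB lies below it at 2.68 and 2.26.

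Genes with the most similar pattern were sought by the root mean square distance over the 3 log2 differences from DMSO, among 6421 other genes that exceeded the median gene in at least 1 group mean. Nearest to HMOX1 were the protease inhibitor gene SLPI (distance 0.53; differences 2.63, 1.84 and 5.12 with SAHA, pargyline and both), CHAC1, which breaks down glutathione (0.56; 2.50, 2.56 and 5.80), and the glycolytic gene ALDOC (0.84; 2.66, 2.34 and 3.52). Nearest to BLVRB were GLCE (0.06), INO80B (0.07) and TPMT (0.08). Nearest to NQO1 were HHEX (0.03), SNX7 (0.04) and S100PBP (0.04).

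Of the regulators, NFE2L2, which encodes NRF2 itself, did not pass in any comparison with DMSO. It read from 12.78 to 12.84 with DMSO, from 12.77 to 12.97 with SAHA, from 12.61 to 13.00 with pargyline and from 12.81 to 13.02 with both, with differences of 0.06, -0.01 and 0.15 (SE 0.10 each). KEAP1, the adaptor that targets NRF2 for degradation, fell with SAHA. It read 10.63, 10.71 and 10.40 with DMSO, 8.37, 8.37 and 8.04 with SAHA, 10.73, 10.42 and 10.47 with pargyline and 7.25, 7.63 and 8.32 with both. Its arrays with SAHA were all more than 2 log2 units below its lowest DMSO array. KEAP1 fell by 2.32 ± 0.23 with SAHA (SE, adjusted p = 2.1e-05 in limma) and by 2.84 ± 0.23 with both (adjusted p = 4.42e-06), and differed by -0.04 with pargyline (adjusted p = 0.95).

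SQSTM1, whose product p62 binds KEAP1, rose with each treatment, by 1.24 ± 0.10 with SAHA, 1.12 ± 0.10 with pargyline and 2.06 ± 0.10 with both (SE). It read from 11.94 to 12.27 with DMSO, from 13.26 to 13.49 with SAHA, from 13.22 to 13.31 with pargyline and from 14.01 to 14.30 with both, so that only SAHA and pargyline overlapped. A further SQSTM1 probe set gave larger rises of 2.87, 2.69 and 5.21. MAFF, a small MAF partner, rose by 1.06 ± 0.13, 0.62 ± 0.13 and 1.57 ± 0.13. BACH1, the repressor of HMOX1, rose by 0.59 ± 0.14 with pargyline (adjusted p = 0.0197) and differed by 0.01 with SAHA. With both drugs it rose by 0.38 ± 0.14 (adjusted p = 0.046), a call kept in 5 of 12 fits without 1 array. It was lost without any one of the DMSO replicates, SAHA replicate 1, Pargyline replicate 3, COMBO replicate 2 or COMBO replicate 3 (adjusted p from 0.0555 to 0.141), and with arrays centred on their medians (0.118). The BACH1 call with pargyline was lost without DMSO replicate 1 (adjusted p = 0.0746), DMSO replicate 2 (0.0574), Pargyline replicate 2 (0.0626) or Pargyline replicate 3 (0.0709).

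Over the whole list of 10 measured NRF2 regulators, 3 rose and 4 fell with SAHA, 4 rose and 1 fell with pargyline, and 5 rose and 3 fell with both. In the same comparisons 46.2%, 15.9% and 48.3% of all genes passed, which holds for the counts of the other lists too. The falls included RBX1, the ring subunit of the ligase that KEAP1 serves, by 1.09 ± 0.05 with SAHA and by 1.40 ± 0.05 with both. The pargyline count of 5 became 2 without DMSO replicate 1 or Pargyline replicate 3, and 3 without DMSO replicate 2 or Pargyline replicate 1. The median differences were 0.03, 0.08 and 0.18, beside medians over all genes of 0.00, -0.02 and -0.01. With arrays centred on their medians these became -0.07, -0.05 and 0.02, and with both drugs 3 rose and 4 fell, under a setting that moved the median over all genes to -0.10, -0.15 and -0.17.

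**Figure D4:**
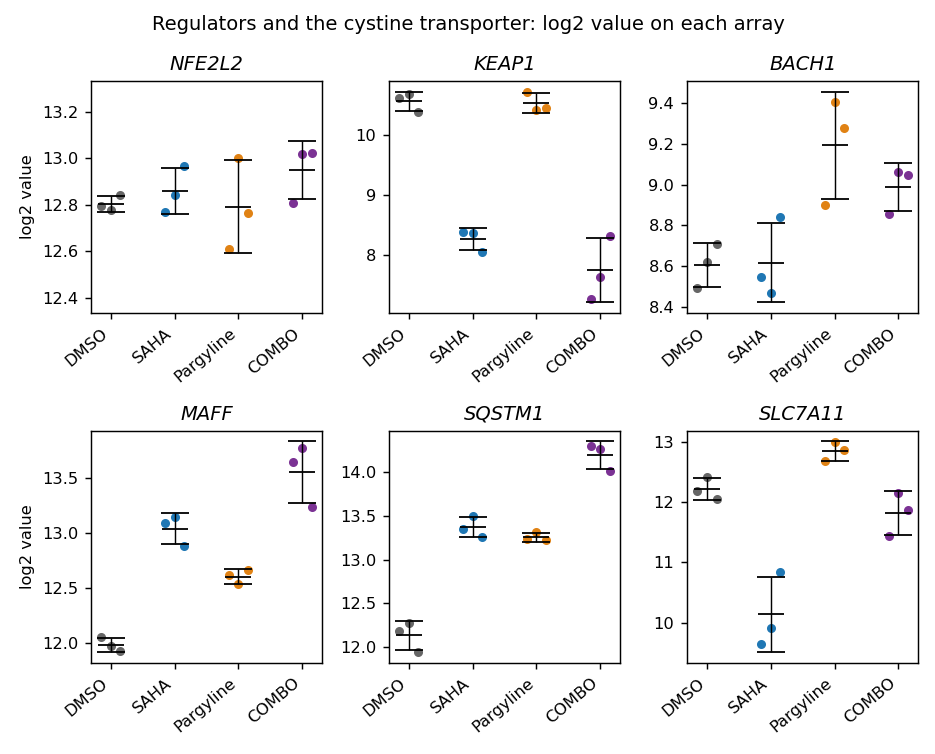
Log2 value on each array (points), with mean and SD (n = 3), for NFE2L2, KEAP1, BACH1, MAFF, SQSTM1 and SLC7A11 by treatment; each panel has its own y range of at least 1 log2 unit. NFE2L2 stays between 12.61 and 13.02, KEAP1 drops with SAHA and with both, and SLC7A11 is lowest with SAHA alone.

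Other targets of NRF2 mostly rose with pargyline and went both ways with SAHA. Of 21 measured, 9 rose and 7 fell with SAHA, 14 rose and 0 fell with pargyline, and 12 rose and 3 fell with both, with median differences of 0.26, 0.75 and 0.46. With arrays centred on their medians these were 0.15, 0.62 and 0.30, and 7 rose and 7 fell with SAHA. SLC7A11, the cystine transporter that feeds glutathione synthesis, read 12.18, 12.41 and 12.05 with DMSO, 9.66, 9.91 and 10.84 with SAHA, 12.67, 13.00 and 12.86 with pargyline and 11.44, 12.15 and 11.87 with both. SAHA alone was far below the rest. SLC7A11 fell by 2.08 ± 0.29 with SAHA (SE, adjusted p = 0.000183 in limma), while its further probe sets gave -4.25 and -2.20. With both drugs it differed from DMSO by -0.39 (adjusted p = 0.31) and was 1.68 ± 0.29 above SAHA alone (adjusted p = 0.00445). ABCC3, an exporter of glutathione conjugates, rose by 3.25 ± 0.36 with pargyline, from a mean of 4.83 to 8.07, and a further probe set gave 2.12 ± 0.42. With SAHA its mean was 2.23, under the lower tertile of gene means at 2.79, so the size of that decrease is not given, and the further probe set, already at 2.39 with DMSO, gave -0.29 (adjusted p = 0.758). With both drugs ABCC3 also fell from DMSO, so its rise with pargyline was not seen where SAHA was present. The aldo-keto reductase genes AKR1C1, AKR1C2, AKR1C3 and AKR1B10, whose probe sets can bind each other's transcripts, rose by 2.35 to 2.61 with pargyline. AKR1C3 also rose by 2.32 ± 0.09 with SAHA and by 2.66 ± 0.09 with both, an interaction of -2.19 ± 0.12 (adjusted p = 8.21e-05). AKR1C2 rose by 0.77 with SAHA and by 1.53 with both. AKR1C1 and AKR1B10 rose by 1.32 and 1.31 with both, AKR1B10 in 8 of 12 fits without 1 array. With SAHA their differences of 0.66 and 0.76 did not pass (adjusted p = 0.0571 and 0.183). That of AKR1C1 passed with quantile normalization (adjusted p = 0.0453), with dim genes left out (0.029) and with the mean of its probe sets (0.0449). It also passed with the replicate number as a block (0.0265), with a trended and robust prior (0.049) and in 2 of 12 fits without 1 array. A further AKR1C1 probe set gave 0.76 with SAHA (adjusted p = 0.0384 in limma over probe sets), and another, at 2.24 with DMSO, gave 0.02. The interaction passed for AKR1C2 and AKR1C1 (-1.85 each, AKR1C1 in 8 of 12 fits), not for AKR1B10 (-1.80, adjusted p = 0.138).

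Of 21 genes of glutathione use and turnover, 11 rose and 6 fell with SAHA and with both drugs alike, and 6 rose and 4 fell with pargyline (6 passed in all without Pargyline replicate 3). With arrays centred on their medians 5 rose and 6 fell with pargyline, where the median over all genes was -0.15. In that setting 10 rose and 7 fell with SAHA and with both drugs alike. CHAC1 rose by 2.50 ± 0.50 with SAHA, 2.56 ± 0.50 with pargyline and 5.80 ± 0.50 with both. GPX1, a cytosolic glutathione peroxidase, fell by 1.35 ± 0.12, by 0.85 ± 0.12 and by 2.36 ± 0.12. The membrane-bound transferase genes MGST2 and MGST3 went opposite ways with SAHA, MGST2 by -2.77 ± 0.14 and MGST3 by 1.55 ± 0.07. GPX3, a secreted peroxidase, rose by 1.55 ± 0.11 with SAHA and by 1.08 ± 0.11 with both. With pargyline GPX3 fell by 0.43 (SE 0.11, adjusted p = 0.0256), and a further probe set gave -0.44. That call was lost without DMSO replicate 1 (adjusted p = 0.0736), DMSO replicate 2 (0.0539), Pargyline replicate 2 (0.0746) or Pargyline replicate 3 (0.0897), and with the compared groups alone (0.0659).

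Most heme synthesis and transport genes rose with SAHA and with both drugs. Of 11 measured, 9 rose and 1 fell with SAHA, 1 rose and 1 fell with pargyline, and 9 rose and 2 fell with both, with median differences of 0.66, 0.07 (-0.06 with arrays centred on their medians) and 0.87. ALAD, the enzyme of the pathway's condensation step that makes porphobilinogen, read 9.24, 9.39 and 9.65 with DMSO, 11.62, 11.88 and 11.40 with SAHA, 9.34, 9.47 and 9.56 with pargyline and 11.57, 11.55 and 11.33 with both. It stood high only on arrays with SAHA, by 2.20 ± 0.14 and 2.05 ± 0.14 (adjusted p = 9.33e-07 and 1.21e-06 in limma). ALAS1, the rate-limiting enzyme, rose by 0.77 ± 0.15 with SAHA and 1.37 ± 0.15 with both. Its pargyline difference of 0.37 ± 0.15 (adjusted p = 0.143) passed with the replicate number as a block (0.00724). UROS rose by 1.24 ± 0.11 and 1.08 ± 0.11. UROD, the next enzyme after UROS, fell by 1.18 ± 0.09 with SAHA and by 1.18 ± 0.09 with both. With pargyline UROD fell by 0.34 (SE 0.09, adjusted p = 0.0241), a call lost without DMSO replicate 1 (adjusted p = 0.0772), DMSO replicate 2 (0.0848), Pargyline replicate 2 (0.0709) or Pargyline replicate 3 (0.0781) and with the mean of its probe sets (0.057), which left 1 pargyline call in this list each time.

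Iron genes showed no common direction. Of 12 measured, 5 rose and 6 fell with SAHA, 2 rose and 1 fell with pargyline, and 3 rose and 5 fell with both. TFRC, the transferrin receptor, whose message is destabilised by iron, read from 14.55 to 14.59 with DMSO, from 14.38 to 14.49 with SAHA, from 14.42 to 14.68 with pargyline and from 14.47 to 14.66 with both. Its differences of -0.14, -0.01 and 0.02 (SE 0.07 each) did not pass, but with SAHA a further probe set gave -0.38 ± 0.06 and the mean of both passed (adjusted p = 0.00224), as did the fit with arrays centred on their medians (0.0288) and that of the compared groups alone (0.0265). STEAP3, an endosomal iron reductase, fell by 1.48 ± 0.06 with SAHA and by 0.97 ± 0.06 with both, and the iron transporter SLC11A2 fell by 0.32 ± 0.08 and by 0.95 ± 0.08.

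**Figure D5:**
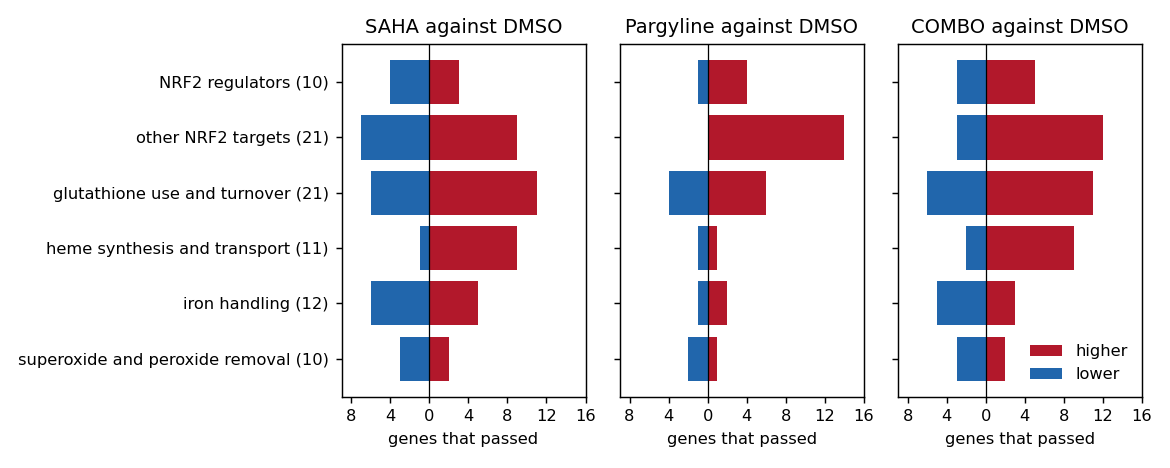
Number of genes that passed (x axis), higher to the right and lower to the left of 0, in 6 lists (y axis, number measured in brackets) for SAHA, pargyline and both drugs against DMSO. With SAHA 9 of 11 heme genes are higher, and with pargyline 14 of 21 other NRF2 targets are higher and 0 lower.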

How the data were processed

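The arrays were read as a table of deposited log2 values, which the authors made with RMA per the submitters' processing notes; its version, and whether the 12 arrays were normalized together, are not given in the sources used here. RMA subtracts background and forces like distributions, so changes common to most genes would not show. The platform annotation gives 1 gene for 19064 of the 22277 probe sets, several for 1043 and none for 2108, beside 62 controls. Old symbols were replaced through their gene identifiers by those of RefSeq (GRCh38.p14), the source of the promoter sequences too.

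A mean per group was fitted to all 12 arrays with limma 3.58.1 (lmFit and eBayes, 8 residual degrees of freedom) in R 4.3.3, over 11963 genes, and p-values were adjusted over all of them. The 95% intervals take the moderated SE with those 8 degrees of freedom. The moderated test uses more, so the intervals are slightly wider than its p-values imply. The 7 comparisons were each treatment against DMSO, between treatments, and the interaction. The fit was tested on simulated data. Deviations of equally numbered arrays from their group means correlated above 0.1 in all 3 pairs for DMSO and pargyline (r from 0.122 to 0.268) and for SAHA and COMBO (0.257 to 0.535), where the numbers were taken to pair the arrays. The fit reported has no block, and blocked values stand beside it where they change a call given here. The members and lists were chosen with earlier results of these data known. Named beyond the members were at most 5 genes per list, those with the largest differences that passed against DMSO, NFE2L2, KEAP1, BACH1, HMOX2, TFRC and SLC7A11 in any case, and the 3 genes nearest in pattern to HMOX1, BLVRB and NQO1. The alternatives tried were quantile normalization, arrays centred on their medians, leaving out dim genes, the mean of a gene's probe sets or every probe set, a trended and robust prior, array weights, a block for the replicate number, the compared groups alone, and leaving out each array.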

Additional observations from a re-analysis of the deposited data

Results flagged for a closer look

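The effect of SAHA on BLVRB differed with and without pargyline: the interaction was -0.41 ± 0.09 on the log2 scale (SE, adjusted p = 0.0417 in limma). SAHA raised BLVRB by 2.14 from DMSO and by 1.72 from pargyline, with no overlap between the arrays of the compared groups each time. The call did not hold in 10 of 12 fits without 1 array, and its cause was not tested.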

How the results depend on the processing

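Over 21 settings, 252 values gave 5059 alternative values, of which 4825 kept their direction and side of the threshold or stayed within 1.5 times, 101 no longer passed, 43 newly passed, 90 counts moved further and 0 called values reversed. Counts of the 8 genes that passed stayed within 1.5 times except as follows. The interaction count of 1 became 0 with arrays centred on their medians and with a trended and robust prior. COMBO against SAHA, 1 in the values reported, gave 3 with the replicate block and 2 with array weights. In fits without 1 array the count ran from 2 to 4 for pargyline against DMSO, from 1 to 3 for COMBO against SAHA and from 0 to 1 for the interaction. Among all genes, centring arrays on their medians moved the calls for pargyline against DMSO from 1905 to 7040 (12.4% of calls higher against 53.2%) and for COMBO against DMSO from 5775 to 10022 (25% higher against 50.3%); with SAHA 36.9% of calls were then higher against 49.9%, for COMBO against SAHA 34.7% against 47.5%, and for the interaction 50.6% against 34.4%. The 445 interaction calls were 670 with the replicate block, 1079 with array weights, and 245 to 261 without DMSO replicate 1 or 2, SAHA replicate 2 or COMBO replicate 2. Pargyline calls were 1234 and 1213 without DMSO replicate 1 or 2, and the 1985 calls of COMBO against SAHA were 1239 without COMBO replicate 2 and 1230 with the compared groups alone. For the 4 other pairs of groups, deviations of equally numbered arrays correlated above 0.1 in 7 of 12 pairs, so there the numbers were not taken to pair the arrays. The 3 arrays per group, and readings near the top of the scale for FTL, limit what could be seen. GCLM rose from a mean of 13.70 with DMSO to 14.68 with both drugs, below the FTL mean of 14.79 with DMSO. Whether the scale held FTL down was not tested.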

Other observations

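A probe set listed for FTH1P5, a processed pseudogene of the ferritin heavy chain gene, rose in each comparison with DMSO, by 0.36 ± 0.06 (SE) for SAHA, 0.35 ± 0.06 for pargyline and 0.48 ± 0.06 for COMBO (adjusted p = 0.000394, 0.00336 and 4.97e-05 in limma over probe sets). It read 14.16, 14.35 and 14.18 with DMSO, 14.58, 14.64 and 14.56 with SAHA, 14.62, 14.60 and 14.53 with pargyline and 14.66, 14.79 and 14.70 with both, so all treated arrays lay above all DMSO arrays. A probe set of this kind can bind transcripts of near-identical genes, and which ferritin heavy chain transcripts it read was not tested. It was named after its values were seen.

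Of 10 measured genes that remove superoxide and peroxide, 2 rose and 3 fell with SAHA and with both drugs alike, and 1 rose and 2 fell with pargyline, where 46.2%, 48.3% and 15.9% of all genes passed. CAT, the catalase gene, rose by 0.55 ± 0.05 for SAHA, 0.46 ± 0.05 for pargyline and 0.81 ± 0.05 for COMBO. PRDX1, a cytosolic peroxiredoxin, rose by 0.55 ± 0.07 with SAHA, while PRDX3, its mitochondrial relative, fell by 0.31 ± 0.04.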
